A study of Mus musculus with 12 samples.

Results

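The S100 genes encode small calcium-binding proteins with paired EF-hand motifs, several of which leave stressed or dying cells and act on neighboring cells as alarmins. Of these genes, 8 were followed here by their gene symbols in the GENCODE mouse annotation, namely *S100a1*, *S100a4*, *S100a6*, *S100a8*, *S100a9*, *S100a10*, *S100a11* and *S100a13*, and all 8 were found among the 54446 gene identifiers of the count files. The rule that picks them uses symbols and no measured value, but it was set with earlier results of these data known. *S100a8* and *S100a9*, whose products pair as calprotectin, are among the most abundant mRNAs of neutrophils and of the granulocytic myeloid cells that gather in tumors, and calprotectin signals through TLR4 and through RAGE, the product of *Ager*. YTHDF2 is a cytoplasmic reader of N6-methyladenosine (m6A), the methyl mark on internal adenosines of mRNA, and it recruits the decay machinery to the transcripts that it binds.

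The measurement was YTHDF2 RIP-seq, in which RNA that comes down with an antibody to YTHDF2 (IP) is sequenced beside a sample of the same lysate (Input), so that Input reports how much of a transcript the cells held and IP over Input how far the antibody enriched it. CD11b+ myeloid cells were sorted from subcutaneous MC38 tumors, a mouse colon carcinoma line, that grew in WT mice of the C57BL/6J background. WT here means *Ythdf2* f/f mice without Cre, 8 to 10 weeks old and of both sexes, so the control and the irradiated animals carried the same floxed alleles and an intact YTHDF2. The Ctrl tumors were not irradiated, and the IR tumors had received 1 local dose of 20 Gy 3 days before the cells were taken. Each of the 4 groups (Ctrl Input, IR Input, Ctrl IP and IR IP) held 3 libraries, and each pool of cells came from 5 mice. The study calls these pools technical replicates, so the p-values below measure the spread between pools and may not cover the spread between animals. The sort took every CD11b+ cell, and in such bulk samples a larger share of a cell type and more mRNA per cell cannot be told apart.

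Counts on genes ranged from 34445784 to 40008607 in Ctrl Input, from 37940948 to 42382532 in IR Input, from 28919897 to 33882664 in Ctrl IP and from 27852948 to 30244160 in IR IP. Reads that fell in no gene made up 26.9 to 27.0% of uniquely mapped reads in Ctrl Input and 24.6 to 24.8% in IR Input, but 41.8 to 42.7% in Ctrl IP and 49.4 to 54.1% in IR IP. The part of this difference in the IP results was not tested. The CD11b gene *Itgam* and the myeloid gene *Lyz2* were high, and the 6 general myeloid markers summed to 5020 to 5100 CPM (read counts scaled to a common library size) in Ctrl Input and to 6240 to 6350 in IR Input. The 12 neutrophil markers summed to 7260 to 7290 CPM in Ctrl Input and to 8140 to 8310 in IR Input, the 8 monocyte markers to 1680 to 1760 and 1890 to 2000, the 10 macrophage markers to 519 to 539 and 515 to 542, and the 8 dendritic cell markers to 418 to 434 and 475 to 483. Other cell types left less signal. In Ctrl Input and IR Input, 8 T and NK cell markers summed to 1.69 to 2.06 and 0.94 to 1.91 CPM, 7 stromal and endothelial markers to 31.9 to 33.8 and 29.7 to 33.7, and 7 erythroid and mast cell markers to 20.2 to 22.7 and 17.4 to 19. The 6 epithelial markers summed to 119 to 127 CPM in Ctrl Input and 90.9 to 97.0 in IR Input, nearly all of it from *Cdh1*, and *Krt19* was at 0 in every Input library.

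All 8 genes lie on mouse chromosome 3 (mm10), and each of their longest coding transcripts is at most 731 bases long. *S100a1* (ENSMUSG00000044080.9, 90511034 to 90514392, minus strand) and *S100a13* (ENSMUSG00000042312.9, 90514435 to 90524581, plus strand) run in opposite directions from starts that lie side by side. They are followed along the chromosome by *S100a4* (ENSMUSG00000001020.8, 90603771 to 90606045, plus strand), *S100a6* (ENSMUSG00000001025.8, 90612882 to 90624181, plus strand), *S100a8* (ENSMUSG00000056054.9, 90668978 to 90670035, plus strand) and *S100a9* (ENSMUSG00000056071.12, 90692632 to 90695721, minus strand). *S100a11* (ENSMUSG00000027907.4, 93520488 to 93526287, plus strand) and *S100a10* (ENSMUSG00000041959.14, 93555080 to 93564643, plus strand) lie at the far end of the interval. Between the outermost of these genes the annotation places 61 other protein-coding genes that are not S100 genes, of which only 3 to 5, depending on the comparison, had enough counts to be tested.

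The sequence letters most often methylated by the m6A writer are GGACT (in the DNA alphabet), and the sites of these letters are shown because they are where a YTHDF2 target could carry the mark. The longest coding transcript of each gene was searched on the sense strand only, in GENCODE M21. GGACT occurred in 3 of the 8 transcripts, once in each, and in 42% of the 1436 protein-coding genes whose longest coding transcript is at most 800 bases long. Each site is printed 5′ to 3′ with 8 bases on either side and GGACT in capitals.
*S100a1*, coding sequence, exon 3 of 3, chr3:90511284-90511304, minus strand: ggggaagtGGACTtcaaggag
*S100a10*, 5′ UTR, exon 1 of 3, chr3:93555180-93555200, plus strand: tcttccaaGGACTgctgcgct
*S100a13*, coding sequence, exon 4 of 4, chr3:90524392-90524412, plus strand: gtgaatcaGGACTcagagctg
The transcripts of *S100a4*, *S100a6*, *S100a8*, *S100a9* and *S100a11* held no GGACT. These letters do not show that a site is methylated, and their absence says nothing of other m6A sequences.

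Promoters were read from the RefSeq table of GRCm38.p6, which held 7 of the 8 genes, as 250 bases before and 50 after each start. The starts are those of RefSeq. For *S100a8* the RefSeq start lies downstream of the GENCODE gene start given above, so its printed site falls inside the GENCODE interval. The promoters are shown because the genes rose together with IR in Input, and the part of the promoters in that rise was not tested. The letters TATAAA, searched on both strands, were present in 3 of these 7 windows and in 13.6% of the 32851 windows in the table. They stand in capitals below with 10 bases on either side, on the strand of the gene.
*S100a4*, 31 bases before the start, chr3:90603729-90603754: cctggcagggTATAAAtaggtcagat
*S100a8*, 30 bases before the start, chr3:90669031-90669056: agctttcctcTATAAAagcagctgac
*S100a9*, at the annotated start itself, chr3:90695706-90695731: aggagctgccTATAAAtactgggctt
The other 4 windows, those of *S100a1*, *S100a6*, *S100a11* and *S100a13*, did not hold these letters.

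The counts of *S100a4* and *S100a11* carry limits of their own. Of the 584 exon bases of *S100a4*, a protein linked to cell motility, 302 are shared on the same strand with the predicted gene *Gm42674*, which was at 0 in all 12 libraries. Reads from the shared bases fit both genes and may have been left uncounted. *S100a11* resembles 9 processed pseudogenes, 2 of which are 98.7 to 99.0% identical to it over 297 of its 511 bases. These 2 drew 29 to 621 counts per library and the other 7 at most 31, against 8823 to 16980 counts for *S100a11* itself. Reads that fit both *S100a11* and a pseudogene may have been left uncounted, which these counts do not show. The rank of *S100a11* among the 8 carries this limit. No other gene of the 8 had a similar gene with 100 or more counts in any library. The lowest count of any of the 8 in any library was 171, for *S100a4* in an IP.

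*S100a9* and *S100a8* dominated the family in every library. The 8 genes together took 0.669 to 0.752% of gene counts in Ctrl Input, 0.906 to 0.988% in IR Input, 0.204 to 0.213% in Ctrl IP and 0.223 to 0.251% in IR IP. *S100a8* and *S100a9* made up 78.3 to 80.2% of the family's counts in Ctrl Input and 77.3 to 78.7% in IR Input, and 71.7 to 73.7% and 69.0 to 70.5% in the matching IPs. In CPM per kilobase of exon, *S100a9* reached a mean of 6740 in Ctrl Input and *S100a8* 3030, which placed them 2nd and 4th among 14507 protein-coding genes. They were followed by *S100a11* at 539, *S100a6* at 474, *S100a10* at 293, *S100a13* at 135, *S100a1* at 63.6 and *S100a4* at 49.0, and the 3 libraries of no neighboring pair in this order overlapped. If every counted *S100a4* read came from the 282 exon bases that it shares with no other gene, its level would be 95.2 to 111 CPM per kilobase. That range is an upper bound on plain library size, so the order of *S100a4* and *S100a1* is not settled. Lengths of coding sequence in place of exons gave *S100a6* the 3rd, *S100a10* the 4th and *S100a11* the 5th place and left the other ranks as they were.

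The order in IR Input was the same, with *S100a9* at 9400 CPM per kilobase of exon, now 1st of all protein-coding genes, and *S100a8* at 4190, again 4th. Only *S100a1* (79.1) and *S100a4* (76.0) overlapped between libraries there. In the IPs *S100a11* moved to the 2nd place among the 8 and passed *S100a8*, with 653 against 399 CPM per kilobase in Ctrl IP and 648 against 451 in IR IP, while *S100a9* stayed first at 2550 and 2260. Per kilobase of coding sequence *S100a8* kept the 2nd place in IR IP. *S100a8* fell from 4th to 62nd among all protein-coding genes between Ctrl Input and Ctrl IP, whereas *S100a9* was 2nd in both.

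**Figure D1:**
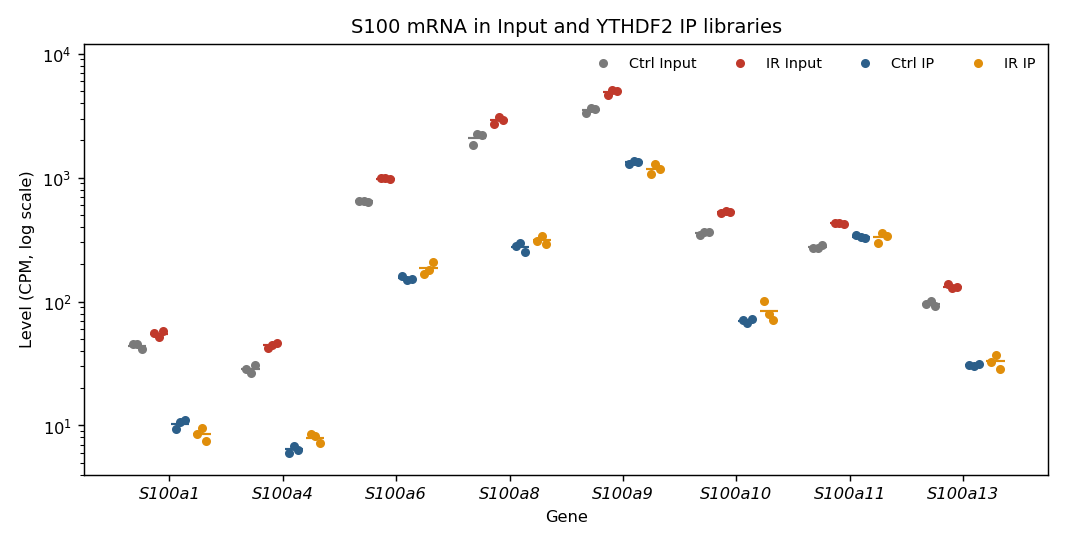
Level of each S100 gene in every library, in CPM on a log axis, with 3 points per group and a bar at the group mean for Ctrl Input, IR Input, Ctrl IP and IR IP. IR Input lies above Ctrl Input for all 8 genes, and both IP groups lie below both Input groups for every gene but *S100a11*.

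The first question was how IR changed the amount of each mRNA in the cells, read from Input. All 8 genes rose with IR, against 21.0% of the 16914 genes tested that were called higher and 23.9% called lower (edgeR's quasi-likelihood test, adjusted p under 0.05 over all tested genes). All 3 IR pools were above all 3 Ctrl pools for the 8 genes and for 32.6% of the tested genes. The median log2 fold change of the 8 was 0.45, and that of all tested genes was 0.0072. Levels in this and the following paragraphs are CPM scaled over all 12 libraries, whereas each fold change comes from the libraries of its own comparison.

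Of calprotectin, *S100a9* read 3310, 3670 and 3580 CPM in the Ctrl Inputs and 4680, 5060 and 4980 in IR. The log2 fold change was 0.40 (SE 0.030, edgeR adjusted p = 1.52e-11), a 1.32-fold rise. *S100a8* read 1850, 2240 and 2210 CPM in Ctrl and 2710, 3100 and 2900 in IR, a log2 fold change of 0.39 (SE 0.046, edgeR adjusted p = 8.26e-08). For both genes every IR pool was above every Ctrl pool, and the lowest Ctrl value of *S100a8* came from pool 1. The ratio of *S100a9* to *S100a8* counts was 1.62 to 1.79 in Ctrl Input and 1.63 to 1.73 in IR Input, so these ranges overlapped.

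Of the annexin-binding genes, *S100a11*, whose product binds annexin A1, read 271, 271 and 284 CPM in Ctrl Input and 433, 433 and 421 in IR Input. Its log2 fold change of 0.56 (SE 0.031, edgeR adjusted p = 5.61e-14) was the largest of the 8. *S100a10*, whose product p11 binds annexin A2 at the cell surface, read 342, 362 and 362 CPM in Ctrl and 515, 542 and 529 in IR, a log2 fold change of 0.50 (SE 0.031, edgeR adjusted p = 6.49e-13). The 3 values of a group lay close together for both genes, and the groups did not overlap.

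*S100a6*, which encodes calcyclin, went from 648, 653 and 642 CPM to 988, 1000 and 967, with a log2 fold change of 0.53 (SE 0.028, edgeR adjusted p = 1.56e-14). *S100a4* went from 28.7, 26.3 and 30.8 CPM to 42.1, 44.7 and 46.4, with a log2 fold change of 0.55 (SE 0.063, edgeR adjusted p = 5.02e-08). For both genes the IR and the Ctrl pools did not overlap, and the level of *S100a4* was the lowest of the 8 in CPM.

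The divergent pair had the smallest values. *S100a13*, which takes part in the release of growth factors that lack a signal peptide, read 95.2, 102 and 92.0 CPM in Ctrl and 138, 129 and 130 in IR, a log2 fold change of 0.38 (SE 0.043, edgeR adjusted p = 3.82e-08). *S100a1*, best known from heart and skeletal muscle, read 45.7, 45.5 and 41.2 CPM in Ctrl and 55.5, 51.5 and 57.6 in IR, a log2 fold change of 0.24 (SE 0.056, edgeR adjusted p = 0.00103). The smallest gap between groups was that of *S100a1*, and its call was lost when all 12 libraries entered the fit (0.29, edgeR adjusted p = 0.052).

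Neutrophil and general myeloid markers moved in the same comparison, and their part in the rise was not tested. Of the 12 neutrophil markers 6 were higher with IR, 3 lower and 3 not called, against 21.0% of all tested genes called higher and 23.9% lower. Among the most abundant of these, *Lcn2*, a granule protein that binds iron carriers, rose by 0.41 on the log2 scale (SE 0.027, edgeR adjusted p = 2.32e-12), *Csf3r*, the G-CSF receptor, by 0.21 (SE 0.031, edgeR adjusted p = 2.99e-06) and *Ngp* by 0.12 (SE 0.029, edgeR adjusted p = 0.00113), and *Ltf*, the most abundant, stood at 0.017 and was not called. The 3 that fell were *Mpo* and *Elane*, enzymes of the primary granules, by 1.99 (SE 0.035, edgeR adjusted p = 4.44e-25) and 0.99 (SE 0.041, edgeR adjusted p = 1.14e-16), and *Mmp9* by 0.25 (SE 0.039, edgeR adjusted p = 8.69e-06). Of the 6 general myeloid markers 5 were higher, *Itgam* by 0.79 (SE 0.025, edgeR adjusted p = 6.21e-19), while *Lyz2* stood at -0.011 and was not called. *Itgam* shares 3450 of its 5024 exon bases on the same strand with another gene, and reads there may have been left uncounted. Of the 10 macrophage markers 6 were higher and 4 lower, and of the 8 monocyte markers 3 were higher and 3 lower. *Cdh1* fell by 0.51. Transcript length moved with the result as well: of 405 tested genes with transcripts of at most 800 bases, the class of all 8 S100 genes, 50.1% were higher with IR and their median log2 fold change was 0.26, against 13.2% and -0.21 in the 1671 genes with transcripts over 6000 bases.

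**Figure D2:**
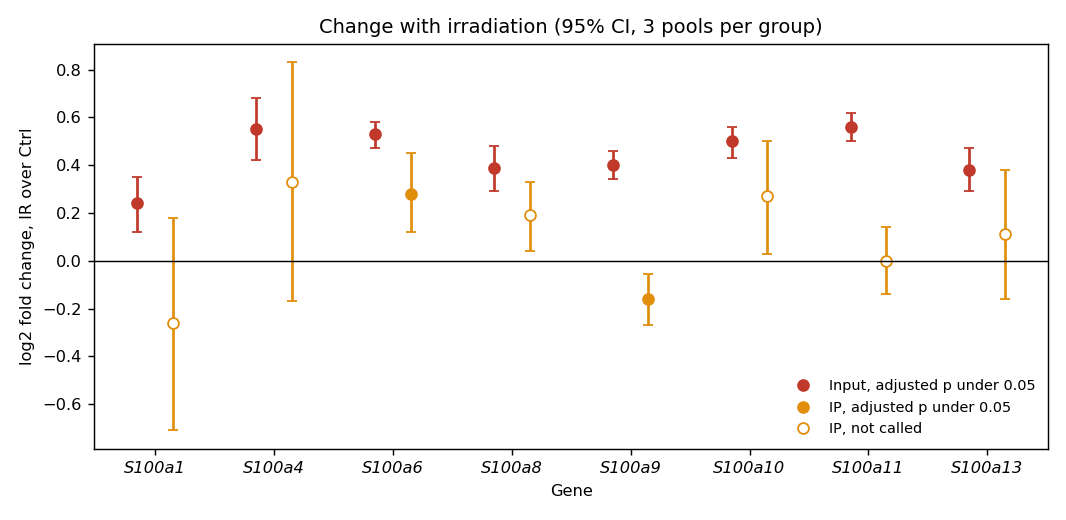
Change with IR of each S100 gene in Input and in YTHDF2 IP, as the log2 fold change of IR over Ctrl with its 95% confidence interval from 3 pools per group. Filled points passed the test: all 8 genes in Input, from 0.24 for *S100a1* to 0.56 for *S100a11*, and in IP *S100a6* (0.28) and *S100a9* (-0.16) only.

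The next question was which transcripts the YTHDF2 antibody enriched. In unirradiated tumors 7 of the 8 genes were depleted in IP relative to Input, against 34.6% of the 17416 tested genes called lower, and *S100a11* was enriched, against 34.1% called higher. The median log2 fold change of the 8 was -2.01, and that of all tested genes was 0.018. By the study's definition of a YTHDF2 target, a transcript higher in IP than in Input, *S100a11* alone of the 8 met it in Ctrl.

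*S100a8* was the most depleted. Its IP levels of 281, 297 and 253 CPM in Ctrl compared with 1850, 2240 and 2210 in Input, a 7.20-fold depletion (log2 fold change -2.85, SE 0.066, edgeR adjusted p = 1.73e-16), and 1.77% of the tested genes had a lower log2 fold change. Its partner *S100a9* kept 1290, 1360 and 1350 CPM in IP, a 2.51-fold depletion (log2 fold change -1.33, SE 0.037, edgeR adjusted p = 2.23e-15). Two-sided exact permutation tests of 3 against 3 pools cannot go below p = 0.1, so the next values are a description. The ratio of *S100a9* to *S100a8* counts, 1.62 to 1.79 in Ctrl Input, was 4.58 to 5.32 in Ctrl IP and 3.48 to 4.06 in IR IP, and the 3 ranges did not overlap. The 95% intervals of IP over Input in Ctrl, -2.99 to -2.71 for *S100a8* and -1.40 to -1.25 for *S100a9*, did not overlap either.

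*S100a10* fell to 71.1, 66.6 and 72.3 CPM in Ctrl IP (log2 fold change -2.27, SE 0.047, edgeR adjusted p = 3.90e-17). *S100a6* fell to 160, 149 and 152 CPM (-2.0, SE 0.040, edgeR adjusted p = 2.91e-17), *S100a4* to 6.05, 6.78 and 6.37 (-2.09, SE 0.12, edgeR adjusted p = 3.62e-11) and *S100a1* to 9.38, 10.6 and 11 (-2.02, SE 0.099, edgeR adjusted p = 5.14e-12). These 4 genes shared a depletion of 4.0 to 4.82-fold. *S100a13* was depleted less, to 30.5, 30.0 and 31.5 CPM (-1.58, SE 0.066, edgeR adjusted p = 5.07e-13).

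*S100a11* stood apart from the other 7. It read 342, 330 and 329 CPM in Ctrl IP against 271, 271 and 284 in Ctrl Input, and its log2 fold change was 0.35 (SE 0.039, edgeR adjusted p = 3.59e-07), with every IP library above every Input library. The enrichment was 1.28-fold, and 60.5% of the tested genes had a lower log2 fold change. The 2 near-identical pseudogenes did not share this value as a pair. The more abundant of them fell by 0.36 (SE 0.14, edgeR adjusted p = 0.0364) and the other stood at 0.30 (SE 0.36, edgeR adjusted p = 0.478).

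After IR all 8 genes were depleted in IP, against 30.4% of the 18650 tested genes called lower and 32.1% called higher, with a median log2 fold change of -2.39 for the 8 and 0.10 for all tested genes. *S100a8* read 311, 337 and 291 CPM in IR IP, an 8.94-fold depletion (log2 fold change -3.16, SE 0.062, edgeR adjusted p = 2.46e-11), and 0.971% of the tested genes had a lower log2 fold change. *S100a9* read 1080, 1280 and 1180 CPM, a 4.01-fold depletion (-2.0, SE 0.054, edgeR adjusted p = 1.75e-10). *S100a11* read 296, 361 and 336 CPM against 433, 433 and 421 in IR Input, and its log2 fold change was now -0.32 (SE 0.064, edgeR adjusted p = 0.00122), with every IP library below every Input library. *S100a11* was therefore enriched in Ctrl and depleted after IR.

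The other 5 genes were depleted 3.87 to 6.19-fold in IR. The values were -2.63 (SE 0.12, edgeR adjusted p = 1.21e-08) for *S100a1*, -2.61 (SE 0.11, edgeR adjusted p = 3.86e-09) for *S100a10*, -2.42 (SE 0.12, edgeR adjusted p = 1.78e-08) for *S100a4*, -2.35 (SE 0.072, edgeR adjusted p = 4.54e-10) for *S100a6* and -1.95 (SE 0.092, edgeR adjusted p = 1.28e-08) for *S100a13*.

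Short transcripts as a class were depleted in these IPs, and the part of length in the S100 values was not tested. Of the 412 tested genes with transcripts of at most 800 bases, 73.1% were called lower in Ctrl IP and their median log2 fold change was -1.42, with quartiles of -2.31 and -0.51. *S100a8* lay below the lower quartile of its length class, *S100a11* above the upper quartile and the other 6 between the quartiles. In IR the median of 442 such genes was -1.38 with quartiles of -2.21 and 0.073, and *S100a8*, *S100a1*, *S100a10*, *S100a4* and *S100a6* lay below the lower quartile. Genes over 6000 bases had medians of 0.34 in Ctrl and 0.67 in IR. Within the short class in Ctrl, 210 genes without GGACT had a median of -1.57 and 202 genes with at least 1 GGACT a median of -1.32, with wide and overlapping quartiles. In IR the order was the other way, with -1.36 for 221 genes without GGACT and -1.40 for 221 genes with it.

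**Figure D3:**
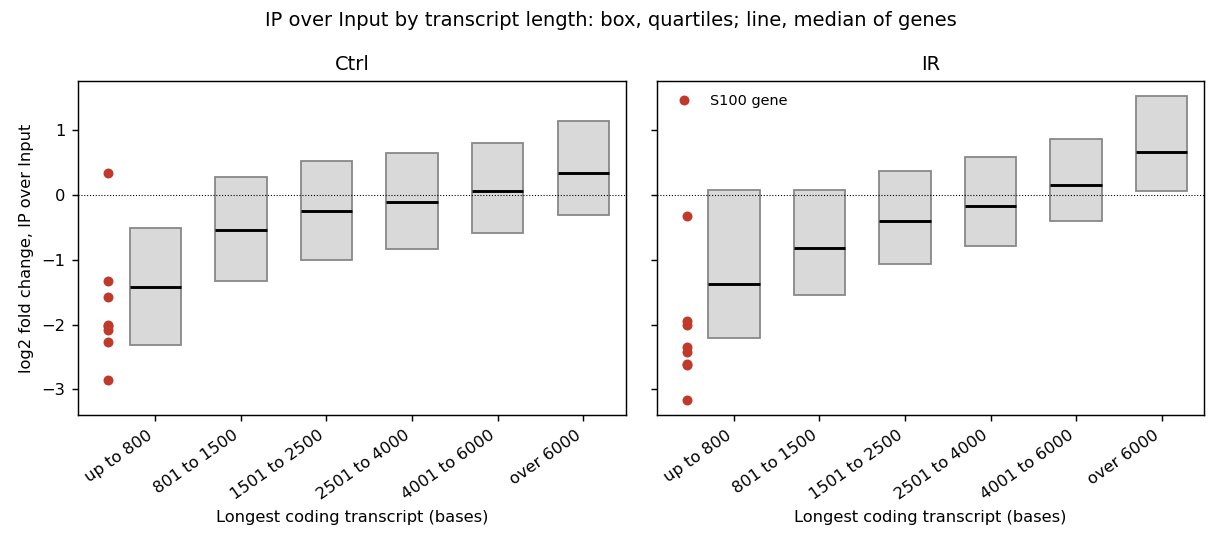
IP over Input as log2 fold change by the length of the longest coding transcript, in Ctrl and in IR. Boxes span the quartiles and black lines mark the medians of all tested protein-coding genes in a length class, and red points are the 8 S100 genes, all of the class up to 800 bases; the class medians climb from -1.42 to 0.34 in Ctrl and from -1.38 to 0.67 in IR, and *S100a11* is the top point in each panel.

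The study asked whether IR changes what YTHDF2 holds, and the change of IP over Input with IR was tested over all 12 libraries. It was below 0 for all 8 genes and passed the test for 6, against 13.9% of the 20720 tested genes called lower and 6.28% called higher. The median of the 8 was -0.34, and that of all tested genes was -0.083. The call depended on the scaling for several genes: with library size alone the median of all genes moved to 0.23, the split of all calls went from 31.1% to 76.5% higher, and 2 of the 8 genes, *S100a9* and *S100a11*, were still called lower. Without Ctrl IP replicate 1 or Ctrl IP replicate 3, 3 of the 8 were called. A fit of all 12 libraries takes the same spread for every group, although the groups differed in it. Between pools, the variance averaged over well-counted genes was 3.66 to 7.15 times the counting variance in Ctrl Input and 18.7 to 23.8 times in IR IP.

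*S100a9* and *S100a11* had the largest changes that held under every one of 17 alternatives. For *S100a9*, log2 IP over Input of the same pool was -1.36, -1.43 and -1.41 in Ctrl and -2.11, -1.99 and -2.08 in IR. Its change was -0.65 (SE 0.068, edgeR adjusted p = 6.39e-07), or -0.57 relative to the median of all tested genes. For *S100a11* the pools read 0.33, 0.28 and 0.21 in Ctrl and -0.55, -0.26 and -0.32 in IR, a change of -0.65 (SE 0.077, edgeR adjusted p = 3.28e-06), or -0.57 relative to the median. All 3 IR pools were below all 3 Ctrl pools for both genes, and for *S100a11* the sign differed as well. Relative to the median the 2 values were also -0.57 with library size alone. A change of scaling moves all genes by nearly the same amount, so values relative to the median, here and below, cannot test the scaling. Of the 2 near-identical pseudogenes of *S100a11*, the more abundant fell too, by 0.86 (SE 0.23, edgeR adjusted p = 0.0103). The other stood at -0.39 (SE 0.59, edgeR adjusted p = 0.719).

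*S100a1* changed by -0.59 (SE 0.16, edgeR adjusted p = 0.0096), with pools of -2.28, -2.10 and -1.90 in Ctrl and -2.70, -2.41 and -2.94 in IR. *S100a6* changed by -0.33 (SE 0.081, edgeR adjusted p = 0.00556), with pools of -2.01, -2.13 and -2.08 in Ctrl and -2.56, -2.47 and -2.20 in IR. The groups did not overlap for either gene. With library size alone neither was called, at -0.27 for *S100a1* (edgeR adjusted p = 0.27) and -0.021 for *S100a6* (edgeR adjusted p = 0.901), which relative to the median of all genes were -0.50 and -0.25. The call of *S100a1* was also lost without Ctrl IP replicate 3 (-0.48, edgeR adjusted p = 0.0543) and that of *S100a6* without Ctrl IP replicate 1 (-0.24, edgeR adjusted p = 0.0751).

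*S100a8* and *S100a13* passed the test narrowly. The change of *S100a8* was -0.29 (SE 0.097, edgeR adjusted p = 0.0414), with pools of -2.72, -2.92 and -3.13 in Ctrl and -3.12, -3.20 and -3.32 in IR, so that the lowest Ctrl pool and the highest IR pool crossed. Its value was 0.022 with library size alone and -0.21 relative to the median under either scaling. The change of *S100a13* was -0.35 (SE 0.11, edgeR adjusted p = 0.0313), with pools of -1.64, -1.77 and -1.55 in Ctrl and -2.07, -1.80 and -2.17 in IR. The calls of *S100a8* and *S100a13* were lost in 11 and 12 of the 17 alternatives, among them library size alone and the DESeq2 test (adjusted p = 0.204 and 0.0562). Without any of the 3 Ctrl IP libraries, IR IP replicate 3, Ctrl Input replicate 1 or IR Input replicates 2 and 3, neither gene was called. *S100a8* was also lost without IR IP replicate 1, and *S100a13* without Ctrl Input replicate 3 or IR Input replicate 1, and the values over these fits were -0.29 to -0.17 for *S100a8* and -0.37 to -0.20 for *S100a13*.

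*S100a4* and *S100a10* did not pass. *S100a4* stood at -0.31 (95% interval -0.65 to 0.027, edgeR adjusted p = 0.203) and *S100a10* at -0.32 (95% interval -0.56 to -0.077, edgeR adjusted p = 0.0592). The pools of *S100a10* were -2.27, -2.44 and -2.32 in Ctrl and -2.36, -2.78 and -2.90 in IR, and pool 1 of IR overlapped the Ctrl pools. With each Input and IP paired by pool, *S100a10* passed (-0.33, edgeR adjusted p = 0.0218). Without IR IP replicate 1 it passed as well, at -0.46 (edgeR adjusted p = 7.59e-05). Both genes had intervals that include changes as large as those called in *S100a6*.

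Over the family, the 3 IR pools were below the 3 Ctrl pools for 6 of the 8 genes, all but *S100a8* and *S100a10*, and for 21.5% of the 20720 tested genes. Of 482 tested genes with short transcripts 22.2% were called lower in this comparison, with a median of -0.30, close to the median of the 8.

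**Figure D4:**
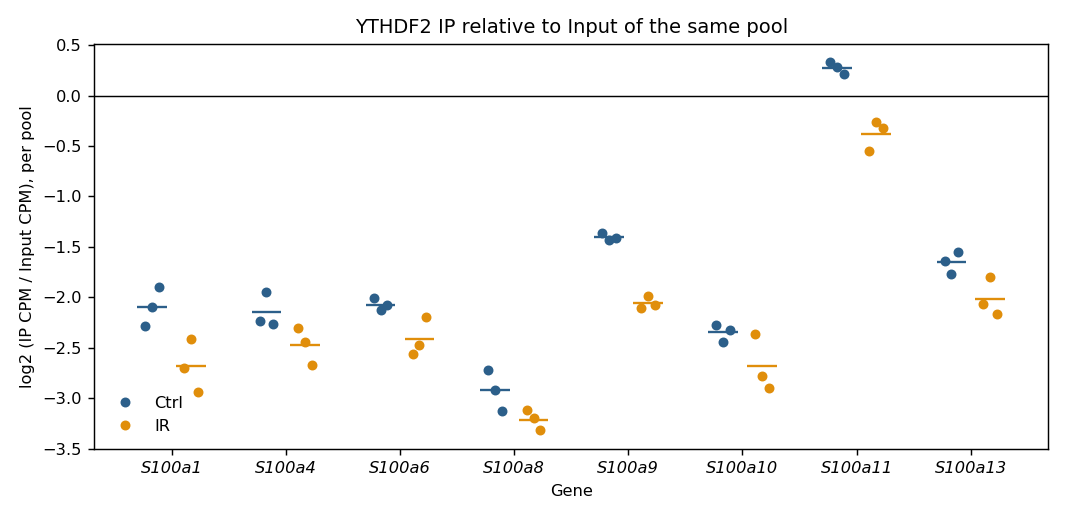
Log2 of IP over Input CPM in each pool of cells, for Ctrl and IR, with 3 pools per condition, a bar at their mean and a line at 0. *S100a11* lies between 0.21 and 0.33 in Ctrl and between -0.55 and -0.26 in IR, and the other 7 genes lie below -1.3 in every pool.

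Between the IPs of IR and Ctrl, 2 of the 8 genes passed the test. *S100a6* rose by 0.28 (SE 0.079, edgeR adjusted p = 0.0208), from 160, 149 and 152 CPM to 168, 181 and 210, and *S100a9* fell by 0.16 (SE 0.051, edgeR adjusted p = 0.0372), against 6.12% of the 19255 tested genes called higher and 9.85% lower. The other 6 were not called, and 4 of the 8 had an unadjusted p under 0.05. Library size alone moved the median of all genes from 0.062 to 0.27 and the split of calls from 38.3% to 76.3% higher, and turned *S100a9* to 0.041. Relative to the median *S100a9* stood at -0.22 and -0.23 under these scalings, values that a change of scaling leaves nearly the same by construction. Both calls depended on single libraries: that of *S100a6* was lost without Ctrl IP replicate 2 (0.27, edgeR adjusted p = 0.0877), Ctrl IP replicate 3 (0.27, edgeR adjusted p = 0.0773) or IR IP replicate 3 (0.20, edgeR adjusted p = 0.0696), and that of *S100a9* without any of Ctrl IP replicates 1, 2 and 3 and IR IP replicates 1 and 3 (-0.18 to -0.095, edgeR adjusted p = 0.0596, 0.17, 0.116, 0.168 and 0.0788).

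*S100a11* stood at -0.0012 in this comparison (95% interval -0.14 to 0.14, edgeR adjusted p = 0.994), with 342, 330 and 329 CPM in Ctrl IP and 296, 361 and 336 in IR IP. Its lower IP over Input after IR thus came with a 1.47-fold higher Input and an IP level whose interval spans 0. *S100a8* stood at 0.19 (95% interval 0.039 to 0.33, edgeR adjusted p = 0.0825), and *S100a10* at 0.27 (95% interval 0.027 to 0.50, edgeR adjusted p = 0.127). Without IR IP replicate 3 both passed, at 0.25 (edgeR adjusted p = 0.0243) and 0.38 (edgeR adjusted p = 0.0232).

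Genes through which S100 proteins act were examined next, as a list of 9 receptors and signaling partners, all of them tested. *Tlr4* and *Ager*, the receptors of calprotectin, went the opposite way from its mRNAs: in Ctrl their log2 fold changes of IP over Input were 1.42 (SE 0.066, edgeR adjusted p = 2.27e-12) and 1.38 (SE 0.10, edgeR adjusted p = 1.79e-09). The part of transcript length in this contrast was not tested. *Cd14*, a co-receptor of TLR4, was enriched too (1.35, SE 0.072, edgeR adjusted p = 1.82e-11). The other 6, *Ly96*, *Myd88*, *Cd36*, *Bsg*, *Cd69* and *Cd44*, were depleted, from -0.43 for *Cd44* to -2.13 for *Cd36*, and the same 3 genes were higher and the same 6 lower in IR. Of all tested genes, 34.1% were called higher and 34.6% lower in Ctrl, and 32.1% and 30.4% in IR.

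*Tlr4* differed from the S100 genes in its change with IR. Its Input level fell by 0.45 (SE 0.069, edgeR adjusted p = 5.46e-06) and its IP over Input rose by 0.38 (SE 0.11, edgeR adjusted p = 0.0183). The exons of *Tlr4* add up to 5556 bases, and the part of length in this contrast was not tested. With IR, genes with transcripts over 4000 and up to 6000 bases had medians of -0.094 in Input and 0.018 in the change of IP over Input. In Input *Ager* (0.33), *Myd88* (0.24), *Cd36* (0.20) and *Bsg* (0.15) rose, and *Ly96*, *Cd14*, *Cd69* and *Cd44* were not called. IP over Input fell with IR for *Cd14* (-0.54, SE 0.12, edgeR adjusted p = 0.00222) and for *Myd88*, the adaptor below TLR4 (-0.51, SE 0.064, edgeR adjusted p = 6.61e-06), and the other 6 were not called.

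Of 8 intracellular binding partners of S100 proteins, all tested, 7 were depleted in Ctrl IP, against 34.6% of all tested genes called lower. *Ahnak*, a giant scaffold that binds the complex of S100A10 and annexin A2, was the exception at 0.55 (SE 0.041, edgeR adjusted p = 1.46e-09). *Anxa2* stood at -0.90 (SE 0.044, edgeR adjusted p = 4.41e-12), *Anxa1* at -0.55 (SE 0.051, edgeR adjusted p = 2.97e-08) and *Cacybp*, which encodes the calcyclin-binding protein, at -2.28 (SE 0.077, edgeR adjusted p = 2.61e-14). With IR 4 of the 8 rose in Input (*Sugt1*, *Ahnak*, *Anxa5* and *Anxa2*, from 0.13 to 0.37) and 3 fell (*Anxa11* by 0.89, *Myh9* by 0.80 and *Cacybp* by 0.71), so the partners did not share the direction of the S100 genes. All tested genes split into 21.0% called higher and 23.9% lower there. *Myh9*, the myosin heavy chain bound by S100A4, gained IP over Input by 1.09 (SE 0.048, edgeR adjusted p = 3.30e-12), while *Anxa1* and *Ahnak* lost (-0.54 and -0.35, edgeR adjusted p = 1.34e-04 and 5.19e-04). The exons of *Myh9* add up to 12928 bases, and the part of length in these values was not tested. With IR, genes with transcripts over 6000 bases had medians of -0.21 in Input and 0.25 in the change of IP over Input.

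The remaining S100 genes were close to absent. Of 10 listed, 9 were matched, and together they held 1.3 to 5.59 CPM per library. Their highest count in any library was 65, for *S100a3*. *S100a5* was lower in Ctrl IP (1 to 4 counts) than in Ctrl Input (40 to 53), at -3.86 (SE 0.68, edgeR adjusted p = 7.22e-05), and *S100a14* higher in IR IP (13 to 27 counts) than in IR Input (1 to 7), at 2.71 (SE 0.87, edgeR adjusted p = 0.0191). In Input the 3 that could be tested between IR and Ctrl had edgeR adjusted p from 0.333 to 0.501.

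Patterns over the 12 libraries were compared as the root mean square difference of log2 CPM after each gene was centered on its own mean, a measure in which the wide gap between IP and Input weighs most and which carries no test. Among 10569 protein-coding genes whose counts averaged at least 100 per library, the nearest to *S100a9* were *Tmsb10* (0.0745), *Rpl38* (0.0926) and *Sdhd* (0.0994). The nearest to *S100a8* were the mitochondrial gene *mt-Co2* (0.0817), *Chil3* (0.141) and *Fth1* (0.143). For *S100a4* they were *Rps16* (0.112), *Cript* (0.124) and *Rps21* (0.124), and for *S100a6* *Rps16* (0.0876), *Rps28* (0.118) and *Lcn2* (0.128). Nearest to *S100a10* were *Rps21* (0.0984), *Ccl9* (0.0989) and *Rps13* (0.114), and to *S100a13* *Rps12* (0.0863), *Mt1* (0.0886) and *Mmp12* (0.0914). A ribosomal protein gene was the nearest to each of *S100a4*, *S100a6*, *S100a10* and *S100a13*, and other genes stood among the 3 nearest. *Selenok* (0.128), *Ndufa5* (0.133) and *Tmsb4x* (0.135) were nearest to *S100a1*, and *Abtb1* (0.067), *Rala* (0.0953) and *Renbp* (0.0983) were nearest to *S100a11*.

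The 8 genes differed among themselves in this measure. *S100a9* and *S100a13* were nearest to each other (0.143), and *S100a4* lay 0.147 from *S100a6* and 0.148 from *S100a10*. *S100a8* and *S100a9*, the calprotectin pair, lay 0.685 apart, further than *S100a8* from *S100a10* (0.313). *S100a11* lay 0.845 from its nearest relative, *S100a9*, and 8922 of the 10569 genes were nearer to it than that.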

How the data were processed

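The authors trimmed reads with Trimmomatic 0.39, aligned them to mm10 (GENCODE M19) and deposited HTSeq counts per gene, without normalization. The strand setting of the counting was not given in the sources used here. A library preparation from poly(A) RNA is named in the labels and from total RNA in the study's methods. Symbols and lengths came from GENCODE M21. Counts were tested with edgeR 4.0.16 in R 4.3.3 (quasi-likelihood test, TMM) in genes that reached 10 counts in 3 or more of the libraries compared, with Benjamini-Hochberg adjustment over all tested genes and a threshold of 0.05. TMM centers the bulk of genes on no change, which hides any shift of binding common to them. Pool ratios used a prior count of 2. DESeq2 1.42.0, other scalings, no filter, the replicate block, a joint fit and leaving out each library were alternatives. The steps were also run on simulated counts in which few genes changed, as many up as down. Such counts cannot test the choice of scaling. Similar genes were found with BLAST+ 2.17.0 (E-value at most 1e-10).

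The 8 genes, the gene lists and the tests were chosen with earlier results of these data known. All 8 genes and the 3 genes nearest in pattern to each of the 8 were named. Genes of the 3 S100-related lists and the 4 most abundant genes of each marker list could be named, but not all were. *Krt19*, *Gm42674*, *Mpo*, *Elane* and *Mmp9* were named after their values were seen. By the study's methods, Input is a part of the lysate taken for the IP. That Input and IP of the same replicate number match was assumed, and the pool ratios rest on this. Over 11728 genes, deviations of same-number Input and IP from the group means correlated on average at -0.0019 in Ctrl and 0.013 in IR. With different numbers the averages were 0.00096 and -0.0063. Ctrl and IR pools came from different mice. The B cell marker list is not reported here.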

Additional observations from a re-analysis of the deposited data

Results flagged for a closer look

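For 6 of the 8 genes the effect of the IP differed between Ctrl and IR by a test of the difference itself, the change of IP over Input over 12 libraries (edgeR's quasi-likelihood test), against 13.9% of all tested genes called lower and 6.28% higher. The log2 values were -0.65 for *S100a9* and -0.65 for *S100a11*, -0.59 for *S100a1*, -0.35 for *S100a13*, -0.33 for *S100a6* and -0.29 for *S100a8*. The values of *S100a9* and *S100a11* kept their call in all 17 alternatives run, and those of *S100a8* and *S100a13* lost it in most. With library size only the other 4 were not called, at -0.27 for *S100a1*, -0.021 for *S100a6*, 0.022 for *S100a8* and -0.039 for *S100a13*.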

How the results depend on the processing

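IP over Input of all 8 genes kept its direction and call in Ctrl and in IR under all 12 alternatives of each (*S100a11* from 0.17 to 0.40 in Ctrl and from -0.46 to -0.17 in IR), and so did the rise in Input apart from *S100a1* in the joint fit of 12 libraries. For the change of IP over Input, 2 of the 8 genes were called lower with library size only, where *S100a8* turned to 0.022, and 3 to 6 when a library was left out. In that comparison the fit with the replicate block (Input and IP of a pool) called 7 genes lower, with *S100a10* added at -0.33, and it changed no other call of IP over Input. For IR over Ctrl in IP, 4 genes were called higher with library size only, 2 each with DESeq2, the replicate block and the joint fit, and 0 to 2 when a library was left out; the number called lower was 0 with DESeq2 size factors and with library size only, and 0 to 1 when a library was left out (edgeR unless named). The numbers pair no samples there, and the block added *S100a8* at 0.19. *S100a11* turned to 0.011 with DESeq2 size factors and with DESeq2, to 0.20 with library size only, and to 0.021 and 0.085 without Ctrl IP replicate 1 and IR IP replicate 1 (from -0.058 to 0.085 over the libraries left out), and *S100a9* to 0.041 with library size only. The cause was not tested. A prior count of 0.25 moved no pool ratio beyond the spread of its pools.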
